A study of Mus musculus with 9 samples.

Results

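The CXC chemokines described here are 7 ligands and 2 receptors, 9 genes of 54532 in the deposited table, picked by gene name: Cxcl1, Cxcl2, Cxcl9, Cxcl10, Cxcl12, Cxcl14, Cxcl16, Cxcr4 and Ackr3. They were followed in the aortas of Apoe-/- mice, which lack apolipoprotein E and develop atherosclerosis. The mice were 6 to 8 weeks old and were kept on their diets for 24 weeks. The 3 groups hold 3 libraries each: HFD_IO, fed a high fat diet and given ammonium iron(III) citrate by intraperitoneal injection to load them with iron; HFD, fed the high fat diet without iron; and CD, fed chow. The Apoe-/- genotype is common to all 9 libraries, and no library with an intact Apoe was analysed here. The labels give 1 aorta per library and do not say whether the aortas came from separate mice, so p-values measure the spread between these libraries.

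CXC chemokines are small secreted proteins with a pair of cysteines set apart by another residue near the amino end. Most signal through G protein-coupled receptors on leukocytes and steer those cells along a gradient. In an atherosclerotic artery Cxcl1 and Cxcl2 are known as attractants of neutrophils and monocytes, Cxcl9 and Cxcl10 as interferon-induced attractants of T and NK cells, and Cxcl12 as a stromal ligand shared by Cxcr4, which signals, and Ackr3, which removes the ligand without G protein signalling. Cxcl16 is made as a membrane protein that also takes up oxidised lipoprotein. Cxcl14 is a stromal and epithelial chemokine whose receptor is not settled.

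Levels are in FPKM, a fragment number divided by gene length and by a factor per library. That factor matched median-of-ratios size factors and not the summed reads. Whole reads could be read back from the values. Those reads sum to between 16660963 and 18308450 per library. Means are given ± SD over 3 libraries. A change is the log2 fold change on the FPKM + 1 scale. It is given with its standard error (SE) from limma and with a p adjusted over 13883 genes by the Benjamini-Hochberg method, with a threshold of 0.05. The added 1 understates the change of weakly expressed genes. Of the 9 genes 8 passed the filter of at least 1 FPKM in at least 3 libraries, and Cxcl10, with 2 such libraries, was not tested. Apoe itself was listed at 19.4 ± 2.28 FPKM in HFD_IO, 12.7 ± 2.71 in HFD and 12.6 ± 1.82 in CD (n = 3 each), a value over the whole gene that does not separate intact from disrupted transcripts. Contractile smooth muscle markers, which define the tissue, summed to 2475 FPKM or more in every library. Of the CD libraries, CD_1 lay at 33.3 on the third principal axis of all tested genes, with CD_2 at -13.5 and CD_3 at -13.1.

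Cxcl1 and Cxcl2 are neighbours on chromosome 5, and so are Cxcl9 and Cxcl10. Each pair correlated across the 9 libraries, with Pearson's r of 0.85 and 0.87 on log2(FPKM + 1), a description over libraries that share their groups. Such values were not particular to neighbours, since Cxcl12 and Cxcl14, on different chromosomes, reached 0.95. Cxcl9 and Cxcl10 were both highest in HFD_IO_2 and CD_1. The 250 bases before their start sites are shown because motifs for different inducers were searched in them (RefSeq, GRCm38.p6, gene strand, 5′ to 3′; capitals mark a match to a motif that was searched). The windows lie at chr5:90890995-90891244 for Cxcl1 and chr5:90903649-90903898 for Cxcl2, on the plus strand, and at chr5:92328080-92328329 for Cxcl9 and chr5:92348890-92349139 for Cxcl10, on the minus strand.
Cxcl1: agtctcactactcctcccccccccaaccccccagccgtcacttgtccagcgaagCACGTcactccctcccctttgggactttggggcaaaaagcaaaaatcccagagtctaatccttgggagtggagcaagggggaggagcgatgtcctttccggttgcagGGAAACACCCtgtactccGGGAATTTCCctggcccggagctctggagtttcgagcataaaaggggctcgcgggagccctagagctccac
Cxcl2: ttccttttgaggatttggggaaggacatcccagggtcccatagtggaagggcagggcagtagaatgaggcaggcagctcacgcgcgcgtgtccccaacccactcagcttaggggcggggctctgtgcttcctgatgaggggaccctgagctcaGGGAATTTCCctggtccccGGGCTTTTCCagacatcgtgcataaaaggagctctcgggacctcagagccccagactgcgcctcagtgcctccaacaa
Cxcl9: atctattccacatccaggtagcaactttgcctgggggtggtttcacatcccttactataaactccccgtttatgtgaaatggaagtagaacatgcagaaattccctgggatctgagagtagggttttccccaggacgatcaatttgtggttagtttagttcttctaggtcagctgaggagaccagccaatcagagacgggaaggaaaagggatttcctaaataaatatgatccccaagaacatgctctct
Cxcl10: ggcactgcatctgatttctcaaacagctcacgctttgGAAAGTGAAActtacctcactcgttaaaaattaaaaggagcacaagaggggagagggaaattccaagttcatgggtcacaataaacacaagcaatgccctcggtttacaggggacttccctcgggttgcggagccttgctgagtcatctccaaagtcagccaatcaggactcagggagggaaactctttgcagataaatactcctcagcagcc

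Motifs for NF-kappaB, the interferon-stimulated response element, STAT factors (TTCNNNGAA) and the core of the hypoxia response element (ACGTG) were searched on both strands. Each was searched in a single form. RefSeq windows were at hand for 8 of the 9 members, all except Cxcl16. The searched form of the NF-kappaB motif was found in Cxcl1 (as GGAAACACCC and GGGAATTTCC) and in Cxcl2 (as GGGAATTTCC and GGGCTTTTCC). It was found in 1.41% of 32851 windows of that length. Other forms of the motif were not searched, so the search cannot show that Cxcl10 or the other windows lack NF-kappaB sites. In Cxcl1 the 2 matches ended 80 and 62 bases before the start, and in Cxcl2 88 and 69 bases before it. The interferon motif was found in Cxcl10 (as GAAAGTGAAA) and Cxcl14 (as GAAACAGAAA), beside 2.98% of windows, and TTCNNNGAA in Cxcl14, beside 7.02%. ACGTG was found in Cxcl1, beside 16.6%. No match overlapped another. None of these motifs, in the forms searched, was found in the windows of Cxcl9, Cxcl12, Cxcr4 or Ackr3.

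In HFD_IO against CD, Cxcl1, Cxcl12, Cxcl14, Cxcl16 and Cxcr4 rose and Ackr3 fell. These are 5 and 1 of 8 members tested, beside 17.5% of all 13883 genes that rose, 15% that fell and 32.5% that did either. In HFD against CD, Cxcl12, Cxcl14, Cxcl16 and Cxcr4 rose and Ackr3 fell, 4 and 1 of 8 beside 21.8% and 17.6% of all genes, or 39.4% in either direction. In HFD_IO against HFD, Cxcl14 and Cxcl16 rose, 2 of 8 beside 14.1% of all genes. No member fell in that comparison by limma, and 0 did at an unadjusted p under 0.05 or with voom, beside 14.5% of all genes. In a test of any difference among the 3 groups 6 of the 8 passed, all except Cxcl2 and Cxcl9, beside 52.1% of all genes. The HFD libraries lay wholly above the CD libraries for 5 members, beside 28.2% of all genes. The median change of the 8 members was 1.28 in HFD_IO against CD, 0.77 in HFD against CD and 0.38 in HFD_IO against HFD, beside -0.01, 0.06 and 0.00 over all genes tested. The comparisons share libraries, so their values for 1 gene are not independent of each other. In bulk tissue fewer cells of a type and less RNA per cell cannot be told apart.

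**Figure D1:**
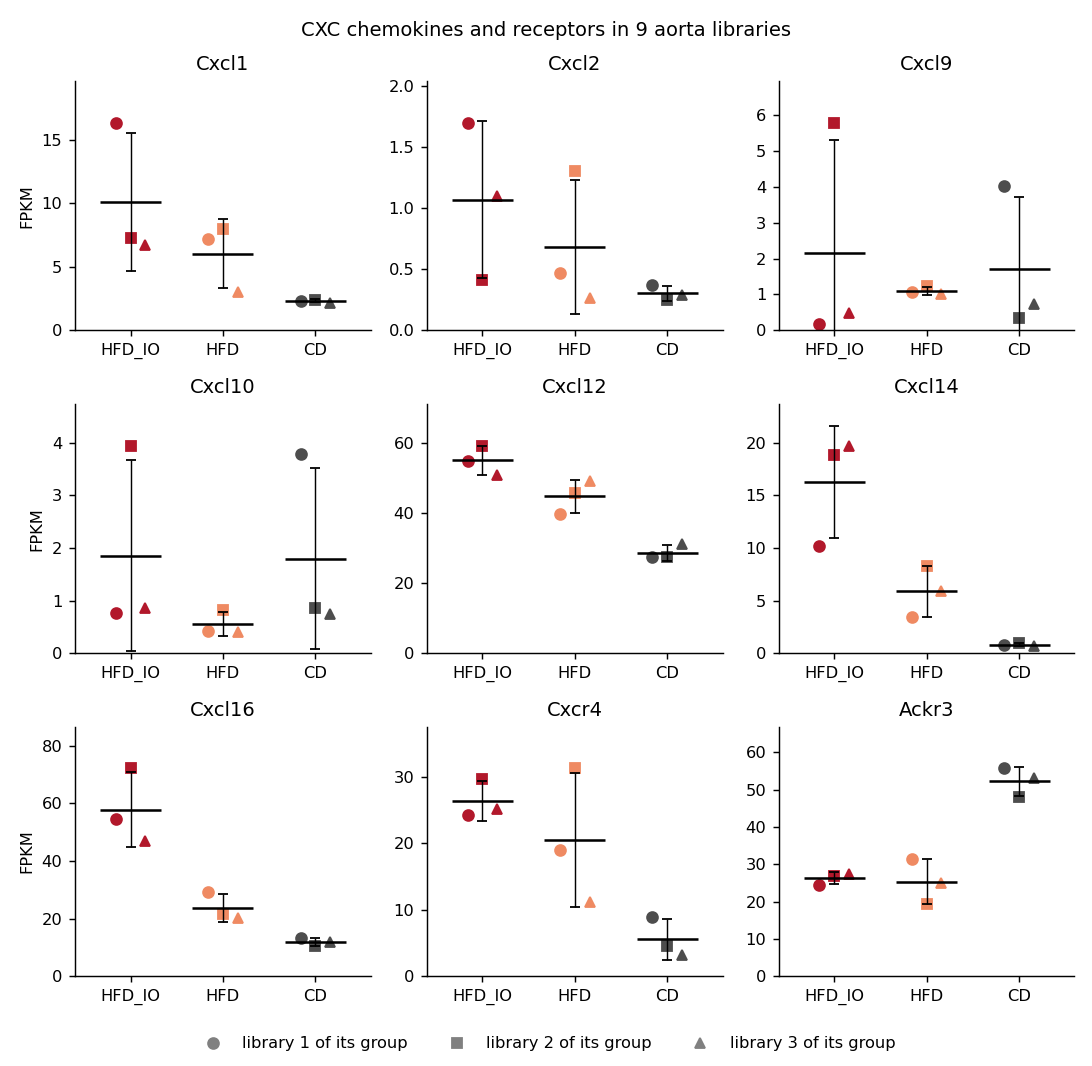
FPKM (y axis, linear from 0, 1 scale per panel) of the 9 genes in HFD_IO, HFD and CD aortas; points are libraries, circles, squares and triangles mark columns 1, 2 and 3 of a group, lines are means and bars ± SD (cut off at 0 where they pass below it). Cxcl14 and Cxcl16 are highest in all 3 HFD_IO libraries, Ackr3 is highest in all 3 CD libraries, and Cxcl9 and Cxcl10 are highest in HFD_IO_2 and CD_1.

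The summed level of the 9 genes was 179 to 224 FPKM in HFD_IO, 116 to 138 in HFD and 95.2 to 117 in CD. In HFD_IO the largest shares were those of Cxcl16 (29.2 ± 3.00%) and Cxcl12 (28.1 ± 1.5%), which did not differ beyond their spread, followed by Ackr3 (13.4 ± 1.69%) and Cxcr4 (13.4 ± 0.559%). In HFD Cxcl12 led with 35.2 ± 6.30%, ahead of Ackr3 at 19.8 ± 5.07%, Cxcl16 at 18.4 ± 3.33% and Cxcr4 at 15.6 ± 6.60%, and those 3 overlapped (SD, n = 3). In CD Ackr3 led with 49.7 ± 1.78%, followed by Cxcl12 at 27.4 ± 3.42% and Cxcl16 at 11.3 ± 0.283%, and each of these was apart from the next. Cxcl2, Cxcl9 and Cxcl10 held the smallest shares in HFD_IO, at 0.568 ± 0.363%, 0.982 ± 1.38% and 0.882 ± 0.761%, and overlapped.

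**Figure D2:**
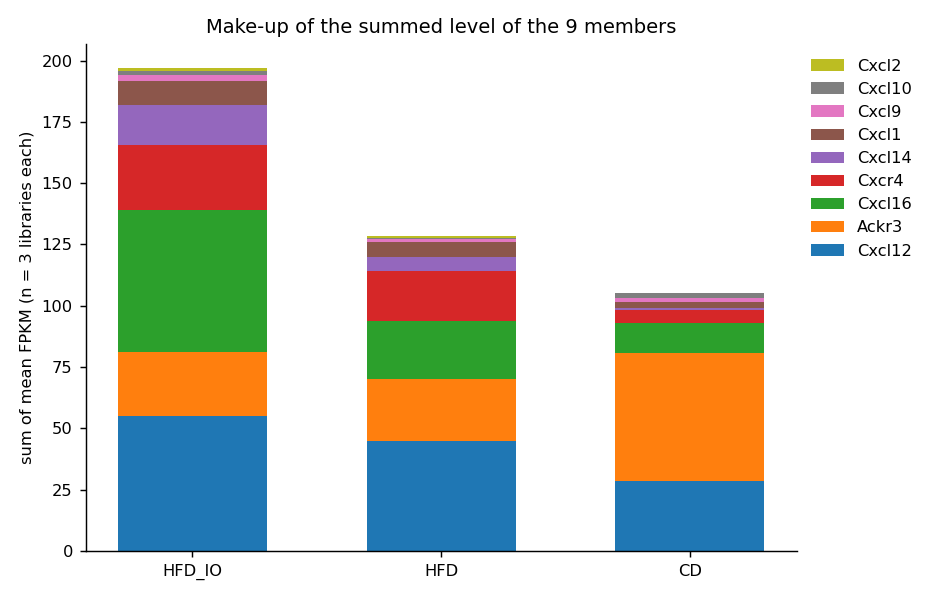
Mean FPKM of the 9 genes stacked per group (y axis, sum of means over 3 libraries; groups HFD_IO, HFD and CD). As a mean of the shares in single libraries, Cxcl16 makes up 29.2% in HFD_IO and 11.3% in CD, and Ackr3 13.4% in HFD_IO and 49.7% in CD.

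Cxcl1 (ENSMUSG00000029380, chromosome 5, 90891241 to 90893115, GRCm38), a ligand of Cxcr2, stood at 16.4, 7.25 and 6.74 FPKM in the HFD_IO libraries, at 7.16, 8.01 and 2.99 in HFD, and at 2.35, 2.42 and 2.20 in CD. HFD_IO_1 was the highest library, all HFD_IO and HFD libraries lay above all CD libraries, and HFD_IO and HFD overlapped. Cxcl1 rose in HFD_IO against CD by 1.64 (SE 0.36, adjusted p = 0.00753), a ratio of means of 4.36. The changes of 1.00 in HFD against CD (SE 0.36, adjusted p = 0.0519) and 0.64 in HFD_IO against HFD (SE 0.36, adjusted p = 0.206) were not past the threshold. The first of these passed it in 9 of 23 alternative settings, among them without HFD_3 (adjusted p = 0.0141) and without HFD_IO_1 (0.0243), with a range of 0.00902 to 0.168.

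Cxcl2 (ENSMUSG00000058427, chromosome 5, 90903871 to 90905938), a further Cxcr2 ligand, was listed at 1.70, 0.416 and 1.10 FPKM in HFD_IO, at 0.470, 1.30 and 0.268 in HFD and at 0.368, 0.247 and 0.292 in CD. These values rest on 9 to 65 reads per library. HFD_IO lay above CD in every library, but the change of 0.62 (SE 0.28) had an adjusted p of 0.12, and it passed the threshold in 1 of 22 alternatives, without HFD_IO_2 (0.87, adjusted p = 0.0487; range 0.0487 to 0.33). The changes of 0.32 in HFD against CD (adjusted p = 0.382) and 0.30 in HFD_IO against HFD (adjusted p = 0.442) were not past it. Transcripts of Cxcl2 and Cxcl3 share a run of 157 bases and those of Cxcl1 and Cxcl2 at most 23, so reads of Cxcl2 and Cxcl3 are uncertain between them. The ratio of Cxcl2 to Cxcl1 in FPKM ranged from 0.0574 to 0.163 over the 9 libraries, and its groups overlapped in each comparison.

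Cxcr2, the receptor of these ligands, and Cxcr1 were weakly expressed. Cxcr1 was listed at 3.30, 0.846 and 0.646 FPKM in HFD_IO, at 0.460, 1.00 and 0.330 in HFD, and at 0 in all 3 CD libraries. Cxcr2 was at 0.789 ± 0.251 FPKM in HFD_IO, 0.229 ± 0.244 in HFD and 0.295 ± 0.231 in CD (n = 3 each). Neither was tested. Cxcl5, a related Cxcr2 ligand of the same cluster, was at 7.95, 1.60 and 1.98 FPKM in HFD_IO, at 1.13, 0.257 and 0.363 in HFD, and at 0.438, 0.456 and 0.236 in CD. It rose in HFD_IO against HFD by 1.41 (SE 0.42, adjusted p = 0.0354) and against CD by 1.58 (adjusted p = 0.0194), with HFD_IO_1 the highest library as for Cxcl1. Cxcl3 had 22 reads over the 9 libraries and Cxcl15 had 19.

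Of 12 neutrophil markers, 9 were tested. Csf3r and Mmp8, the receptor for the neutrophil growth factor and a granule collagenase, rose in HFD_IO against HFD by 1.11 and 1.03 and against CD by 1.56 and 1.57. The other 7 did not pass the threshold in either. Beside them, 14.1% of all genes rose in HFD_IO against HFD and 17.5% in HFD_IO against CD. In HFD against CD 0 of the 9 rose, beside 21.8% of all genes. The 12 markers summed to 40.0 to 134 FPKM in HFD_IO, 28.6 to 34.9 in HFD and 13.6 to 53.7 in CD. The defining markers Ly6g, Mpo and Elane were below 1 FPKM in every library. HFD_IO_2 had the highest sum and HFD_IO_1 the highest Cxcl1, and the part of neutrophils in the Cxcl1 values was not tested.

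Cxcl9 (ENSMUSG00000029417, chromosome 5, 92321347 to 92328079), an interferon-gamma-induced ligand of Cxcr3, was at 0.179, 5.78 and 0.488 FPKM in HFD_IO, at 1.06, 1.23 and 1.02 in HFD and at 4.02, 0.338 and 0.747 in CD. One library in HFD_IO and 1 in CD held most of the signal, with 304 reads in HFD_IO_2 and 223 in CD_1 against 10 to 62 in the other 7. The 3 HFD libraries lay close together, between the extremes of the other groups. The changes were 0.01 in HFD_IO against CD (SE 0.66, adjusted p = 0.995), -0.11 in HFD against CD (SE 0.66, adjusted p = 0.905) and 0.12 in HFD_IO against HFD (SE 0.66, adjusted p = 0.909). Without both HFD_IO_2 and CD_1, a setting chosen after seeing the data, Cxcl9 fell in HFD_IO against HFD by 0.67 (adjusted p = 0.0428; range over 22 alternatives 0.0428 to 0.988), which turns the direction.

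Cxcl10 (ENSMUSG00000034855, chromosome 5, 92346638 to 92348889), also an interferon-induced ligand of Cxcr3, showed the same outlying libraries. It was at 0.768, 3.95 and 0.855 FPKM in HFD_IO, at 0.431, 0.823 and 0.410 in HFD and at 3.79, 0.856 and 0.756 in CD. HFD_IO_2 and CD_1 had 155 and 157 reads, against 15 to 34 in the others. With no filter on low values its changes were 0.02 in HFD_IO against CD (adjusted p = 1), -0.70 in HFD against CD (adjusted p = 0.415) and 0.71 in HFD_IO against HFD (adjusted p = 0.464). Cxcl10 lies within the span of Art3 on the opposite strand, and the strand of the libraries is not given in the sources used here. Art3 was at 6.41 ± 1.46 FPKM in HFD_IO, 19.0 ± 5.58 in HFD and 9.81 ± 0.113 in CD, lowest in HFD_IO_2 and without an excess in CD_1.

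The ratio of Cxcl9 to Cxcl10 in FPKM was 0.233, 1.46 and 0.571 in HFD_IO, 2.46, 1.49 and 2.49 in HFD, and 1.06, 0.395 and 0.988 in CD. All 3 HFD ratios lay above the 6 others. On the log2 scale the difference was 1.49 in HFD against CD and -1.85 in HFD_IO against HFD (exact permutation test, two-sided, p = 0.1 each), where 0.1 is the smallest p that 3 libraries against 3 can give. In HFD_IO against CD it was -0.36 (exact permutation p = 0.7).

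**Figure D3:**
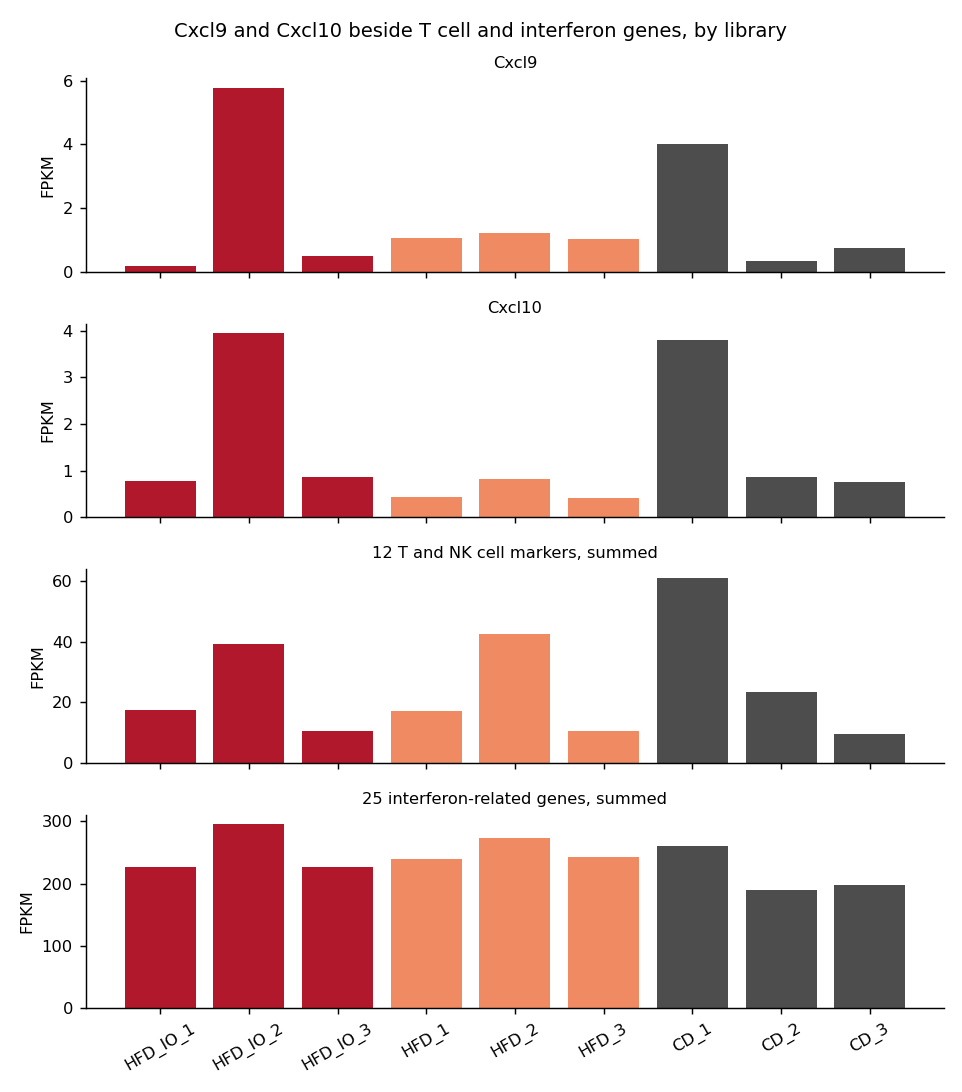
FPKM (y axis, linear from 0) in each of the 9 libraries (x axis, HFD_IO, HFD, CD) of Cxcl9, Cxcl10, the sum of 12 T and NK cell markers and the sum of 25 interferon-related genes. Cxcl9 and Cxcl10 peak in HFD_IO_2 and CD_1, while the T and NK cell sum is 39.2 in HFD_IO_2, 42.5 in HFD_2 and 60.9 in CD_1.

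T and NK cell markers were high in the same libraries and in 1 more. Their sum was 17.5, 39.2 and 10.4 FPKM in HFD_IO, 17.0, 42.5 and 10.5 in HFD, and 60.9, 23.3 and 9.62 in CD. HFD_2, with a sum above that of HFD_IO_2, had 1.23 FPKM of Cxcl9 and 0.823 of Cxcl10 (62 and 31 reads), the highest of the HFD libraries and below HFD_IO_2 and CD_1. Of 9 markers tested, 0 passed the threshold of limma in any of the 3 comparisons, 0 did at an unadjusted p under 0.05, and 0 did with voom. Of all genes 32.5%, 39.4% and 28.6% passed it by limma in HFD_IO against CD, HFD against CD and HFD_IO against HFD. Without both CD_1 and HFD_IO_2, 1 marker rose in HFD against CD. The sums spread widely within groups, so the absence of calls does not show equal levels. Cxcr3, the receptor of both ligands, was at 3.11 ± 1.15 FPKM in HFD_IO, 1.47 ± 0.923 in HFD and 0.309 ± 0.141 in CD (n = 3 each), and rose in HFD_IO against CD by 1.62 (adjusted p = 0.00229) and in HFD against CD by 0.86 (adjusted p = 0.037). The part of T and NK cells in the Cxcl9 and Cxcl10 values was not tested.

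Of 24 interferon-related genes tested, 5 rose and 2 fell in HFD_IO against CD, 5 rose and 4 fell in HFD against CD, and 1 rose in HFD_IO against HFD. Beside them, 17.5% and 15% of all genes rose and fell in HFD_IO against CD, 21.8% and 17.6% in HFD against CD, and 14.1% rose in HFD_IO against HFD, so the counts in HFD against CD lay near the share over all genes. Irf8, a regulator of myeloid cells, led with 2.30 in HFD_IO against CD and 1.55 in HFD against CD. The receptor chains Ifnar1, Ifnar2 and Ifngr2 rose in HFD_IO against CD by 0.62, 0.88 and 0.84, and Ifnar1 was the gene that rose in HFD_IO against HFD, by 0.38. Ifit3 rose by 0.99 and the guanylate-binding protein gene Gbp7 fell by 0.79 in HFD against CD. Ifng was at most 0.18 FPKM in any library and was not tested. The median change was 0.06 in HFD_IO against CD, 0.04 in HFD against CD and -0.03 in HFD_IO against HFD. By library, the 25 genes summed to 228, 296 and 227 FPKM in HFD_IO, 240, 274 and 243 in HFD, and 261, 189 and 198 in CD. Within their groups HFD_IO_2 and CD_1 were highest, as for Cxcl9 and Cxcl10, and so was HFD_2. The part of interferon in the Cxcl9 and Cxcl10 values was not tested.

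Cxcl12 (ENSMUSG00000061353, chromosome 6, 117168535 to 117181367), the ligand of Cxcr4 and Ackr3, was among the 2 most abundant members in each group. It was at 55.0, 59.3 and 50.9 FPKM in HFD_IO, at 39.8, 45.6 and 49.0 in HFD and at 27.4, 27.4 and 31.1 in CD. The 3 groups did not overlap. It rose in HFD_IO against CD by 0.92 (SE 0.11, adjusted p = 0.000362), a ratio of means of 1.92, and in HFD against CD by 0.63 (SE 0.11, adjusted p = 0.00338), a ratio of 1.57. In HFD_IO against HFD the change of 0.29 (SE 0.11) was not past the threshold (adjusted p = 0.0793), though all 3 HFD_IO libraries lay above all 3 HFD libraries, as they did for 24.1% of all genes. The HFD against CD call was lost after rescaling to TPM (0.25, adjusted p = 0.112) and with skeletal muscle markers as a covariate (0.45, adjusted p = 0.0716), within a range of 0.00102 to 0.112 over 23 alternatives. TPM moved the HFD_IO against HFD change to 0.45 (adjusted p = 0.021; range 0.00748 to 0.313).

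Cxcr4 (ENSMUSG00000045382, chromosome 1, 128588199 to 128592293), the signalling receptor of Cxcl12 on leukocytes and progenitor cells, was at 24.2, 29.7 and 25.1 FPKM in HFD_IO, at 18.9, 31.2 and 11.2 in HFD and at 8.93, 4.52 and 3.16 in CD. HFD_2 was the highest library and HFD the most spread group, and every CD library lay below the 6 others. Cxcr4 rose in HFD_IO against CD by 2.16 (SE 0.38, adjusted p = 0.00243), a ratio of means of 4.75, and in HFD against CD by 1.70 (SE 0.38, adjusted p = 0.00807), a ratio of 3.69. HFD_IO and HFD overlapped, with a change of 0.45 (SE 0.38, adjusted p = 0.39). The HFD against CD call was lost with white adipocyte markers (1.66, adjusted p = 0.062) or skeletal muscle markers (1.54, adjusted p = 0.104) as a covariate, within a range of 0.00035 to 0.104 over 23 alternatives.

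Ackr3 (ENSMUSG00000044337, chromosome 1, 90203980 to 90216751), the scavenging receptor of Cxcl12, was the only member that fell. It was at 24.4, 26.9 and 27.4 FPKM in HFD_IO, at 31.5, 19.5 and 24.9 in HFD and at 55.7, 48.1 and 53.1 in CD. All 6 libraries of the high fat diet lay below all 3 CD libraries. Ackr3 fell in HFD_IO against CD by 0.97 (log2; SE 0.16, adjusted p = 0.00172), a ratio of means of 0.502, and in HFD against CD by 1.04 (SE 0.16, adjusted p = 0.0018), a ratio of 0.484. In HFD_IO against HFD the change was 0.08 (SE 0.16, adjusted p = 0.744). The 2 falls held in all 23 alternatives other than the macrophage covariate, with adjusted p between 0.000535 and 0.0186 and between 0.000306 and 0.036.

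Cxcr4 rose and Ackr3 fell in both comparisons with CD, and neither passed the threshold in HFD_IO against HFD. The ratio of Cxcr4 to Ackr3 in FPKM was 0.99, 1.10 and 0.914 in HFD_IO, 0.601, 1.61 and 0.45 in HFD, and 0.16, 0.0939 and 0.0595 in CD. Every HFD_IO and HFD ratio lay above every CD ratio, and the HFD ratios enclosed those of HFD_IO. On the log2 scale the difference was 3.37 in HFD_IO against CD and 2.97 in HFD against CD (exact permutation test, two-sided, p = 0.1 each, the smallest possible), and 0.40 in HFD_IO against HFD (exact permutation p = 0.5).

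**Figure D4:**
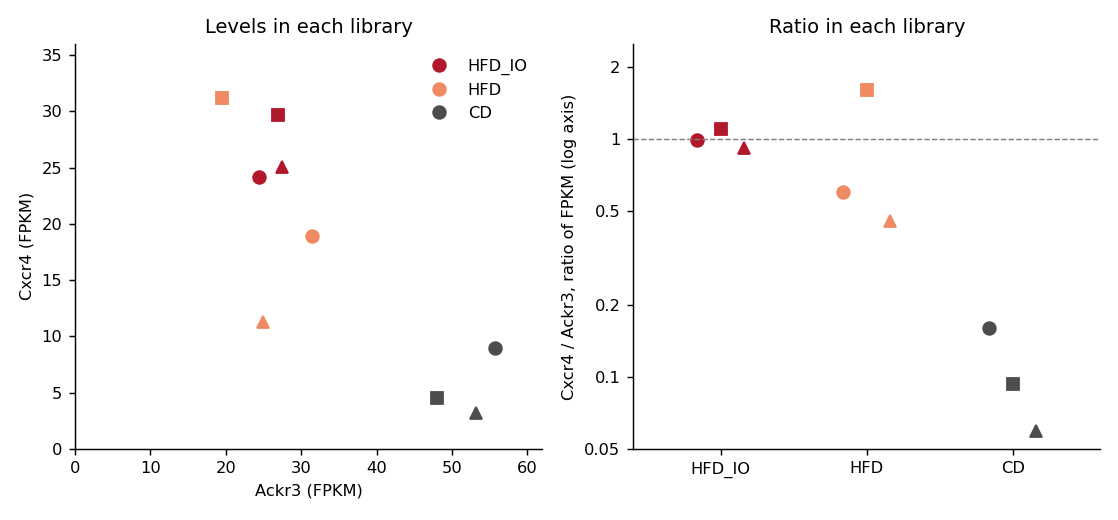
Left, Cxcr4 against Ackr3 in FPKM for the 9 libraries (linear axes); right, the ratio of Cxcr4 to Ackr3 per library on a log axis, with a dashed line at equal levels, for HFD_IO, HFD and CD. Circles, squares and triangles mark columns 1, 2 and 3 of a group. The 3 CD libraries have ratios of 0.0595 to 0.16 and the 6 others 0.45 to 1.61.

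Cell type markers moved beside the receptors and their ligand. Macrophage markers, 12 of 12 of which rose in HFD_IO against CD, 11 in HFD against CD and 10 in HFD_IO against HFD, summed to 5325 to 9113 FPKM in HFD_IO, 3270 to 5372 in HFD and 677 to 763 in CD. Endothelial markers summed to 333 to 380 FPKM in HFD_IO, 168 to 302 in HFD and 492 to 725 in CD, the same order of CD above the others as Ackr3. Of these 10 markers 5 fell in HFD_IO against CD and 9 in HFD against CD, while 3 rose in HFD_IO against HFD. Of all genes 17.5%, 21.8% and 14.1% rose in HFD_IO against CD, HFD against CD and HFD_IO against HFD. In the first 2 of these comparisons 15% and 17.6% fell. White adipocyte markers summed to 345 to 1852, 1216 to 3138 and 543 to 1137 FPKM in HFD_IO, HFD and CD. Brown adipocyte markers summed to 212 to 293, 618 to 1573 and 256 to 472. Of the 7 of them tested, 4 rose and 2 fell in HFD against CD, so their sum hides opposite changes. Adventitial fibroblast markers summed to 1676 to 1876 FPKM in HFD_IO, 2206 to 2679 in HFD and 1697 to 1973 in CD, and smooth muscle markers to 2475 to 4223, 6919 to 8078 and 5369 to 5994 FPKM in HFD_IO, HFD and CD. The fibroblast sum also hides opposite changes. Of the 10 fibroblast markers tested, 2 rose and 4 fell in HFD_IO against CD. In a fit with the macrophage markers as a covariate, 0 of 13883 genes passed the threshold of limma in any comparison, with 199 to 457 that rose and 141 to 342 that fell at an unadjusted p under 0.05. Macrophage content and group cannot be told apart in these 9 libraries, and the part of endothelial, fibroblast and smooth muscle cells was not tested.

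Cxcl14 (ENSMUSG00000021508, chromosome 13, 56288643 to 56296551) had the largest change on the FPKM + 1 scale of the 8 tested members in all 3 comparisons. Its lead over Cxcl16 in HFD_IO against HFD (1.34 against 1.25) was within the SE. So was its lead over Cxcr4 in HFD against CD (1.85 against 1.70). Cxcl14 was at 10.2, 18.9 and 19.7 FPKM in HFD_IO, at 3.44, 8.31 and 5.89 in HFD and at 0.833, 0.962 and 0.691 in CD. The groups did not overlap, and CD rests on 23 to 31 reads per library. Cxcl14 rose in HFD_IO against CD by 3.19 (SE 0.29, adjusted p = 8.31e-05), a ratio of means of 19.6, and in HFD against CD by 1.85 (SE 0.29, adjusted p = 0.00215), a ratio of 7.10. It rose in HFD_IO against HFD by 1.34 (SE 0.29, adjusted p = 0.0112), a ratio of 2.76. The change in HFD_IO against CD was larger than that of 99.5% of all genes tested. The calls held in all 23 alternatives other than the macrophage covariate, with an adjusted p of at most 0.0028, 0.0422 and 0.0471 in the order above. At a pseudocount of 0.01 the change in HFD_IO against CD was 4.23.

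Cxcl16 (ENSMUSG00000018920, chromosome 11, 70453983 to 70459984), the ligand of Cxcr6 and a scavenger receptor for oxidised lipoprotein, was at 54.5, 72.2 and 46.9 FPKM in HFD_IO, at 29.2, 21.6 and 20.2 in HFD and at 13.3, 10.5 and 12 in CD. The groups did not overlap in any comparison. It rose in HFD_IO against CD by 2.17 (SE 0.19, adjusted p = 6.47e-05), a ratio of means of 4.85, in HFD against CD by 0.92 (SE 0.19, adjusted p = 0.00557), a ratio of 1.98, and in HFD_IO against HFD by 1.25 (SE 0.19, adjusted p = 0.00267), a ratio of 2.45. The HFD against CD call was lost after rescaling to TPM (0.57, adjusted p = 0.0614) or with white adipocyte markers as a covariate (0.86, adjusted p = 0.0538; range over 23 alternatives 0.00109 to 0.0614). The HFD_IO against HFD call was lost with skeletal muscle markers as a covariate (1.12, adjusted p = 0.0501; range 0.00124 to 0.0501), while the change stayed between 1.08 and 1.43 in the 23 alternatives other than the macrophage covariate.

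Cxcl16 overlaps 552 bases of Zmynd15 on the opposite strand. Zmynd15 was at 5.96 ± 1.89 FPKM in HFD_IO, 1.78 ± 0.335 in HFD and 2.66 ± 0.306 in CD (n = 3 each) and rose in HFD_IO against HFD by 1.30 (adjusted p = 0.0022). Its highest library, HFD_IO_2 at 8.14 FPKM, was also that of Cxcl16, and without strand the reads of the shared stretch cannot be assigned. The receptor Cxcr6 was at 0.532, 3.12 and 0.792 FPKM in HFD_IO, 0.947, 0.836 and 0.478 in HFD and 0.366, 0.0881 and 0.313 in CD, and was not tested. Of the proteases that release Cxcl16 from the cell surface, Adam10 was at 30.9 ± 2.66 FPKM in HFD_IO, 19.4 ± 2.43 in HFD and 22.0 ± 0.642 in CD, and rose in HFD_IO against HFD by 0.65 (adjusted p = 0.00464) and against CD by 0.47 (adjusted p = 0.0116). Adam17 rose in HFD_IO against HFD by 0.42 (adjusted p = 0.0453).

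**Figure D5:**
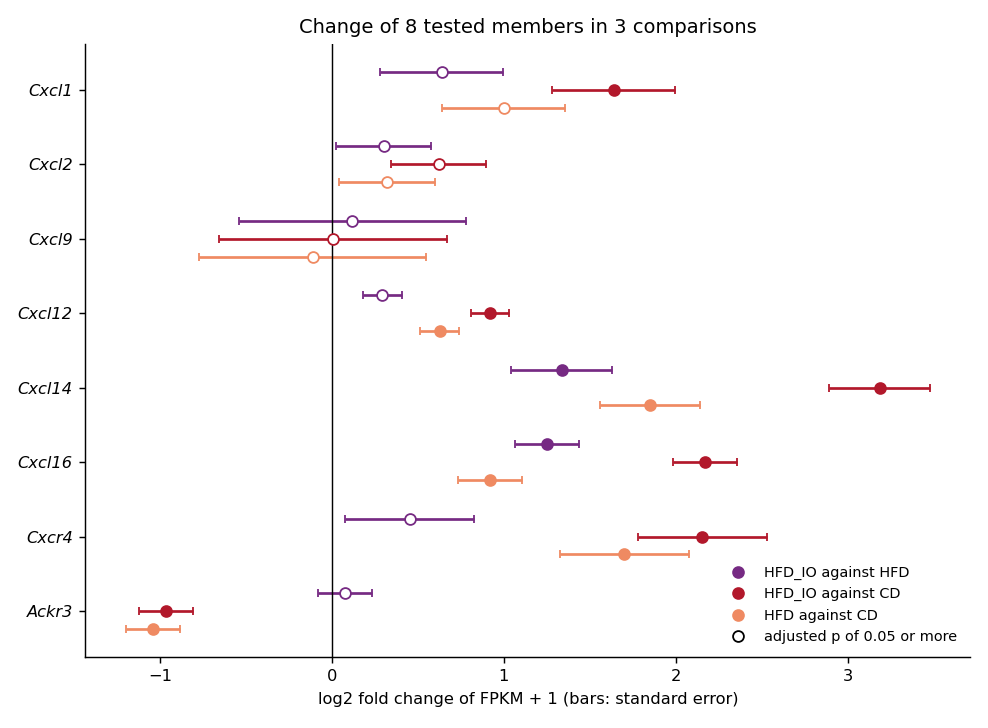
Log2 fold change of FPKM + 1 (x axis; bars are limma's standard error) of the 8 tested members in HFD_IO against HFD, HFD_IO against CD and HFD against CD; filled points have an adjusted p under 0.05. Cxcl14 and Cxcl16 are filled in all 3 comparisons, Ackr3 is filled below 0 in the 2 comparisons with CD, and Cxcl2 and Cxcl9 are open throughout.

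The remaining genes of the family were mostly weak. Of 13 other CXC chemokines and receptors 5 were tested, and besides Cxcl5 and Cxcr3 these were Cxcl13, Pf4 and Ppbp. Cxcl13, a B cell attractant, was at 4.34 ± 2.81 FPKM in HFD_IO, 16.6 ± 10.3 in HFD and 0.77 ± 0.255 in CD, and rose in HFD against CD by 3.07 (adjusted p = 0.00311). The platelet chemokine Pf4 was at 40.8 ± 3.03 FPKM in HFD_IO, 60.9 ± 11.8 in HFD and 41.4 ± 18.1 in CD, with no change past the threshold (adjusted p = 0.137, 0.0887 and 0.891 in HFD_IO against HFD, HFD against CD and HFD_IO against CD). Without both CD_1 and HFD_IO_2, Pf4 rose in HFD against CD by 0.94 (adjusted p = 0.00559) and fell in HFD_IO against HFD by 0.61 (adjusted p = 0.0342). Platelet markers summed to 4.17 to 6.69, 2.36 to 5.76 and 3.86 to 6.36 FPKM in HFD_IO, HFD and CD. The cell source of Pf4 was not tested. Ppbp, a second platelet chemokine, was at 4.51 ± 1.55, 5.67 ± 3.88 and 5.44 ± 2.86 FPKM in HFD_IO, HFD and CD. Cxcr5, the receptor of Cxcl13, reached 4.25 FPKM in HFD_2 and stayed below 1 in the other 8 libraries, and B cell markers summed to 106 FPKM in HFD_2 and at most 16.1 in the others. Cxcl11, listed as a polymorphic pseudogene, had 9 reads over all libraries and Cxcl17 had 15.

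Of 10 atypical receptors, other ligands and proteases of the system, 2 rose in HFD_IO against CD, 1 rose and 1 fell in HFD against CD, and 2 rose and 1 fell in HFD_IO against HFD. Of all genes, 17.5% rose in HFD_IO against CD, and 21.8% rose and 17.6% fell in HFD against CD. In HFD_IO against HFD, 14.1% of all genes rose and 14.5% fell. The counts of the list lay near these shares or below them. Mif, a cytokine that also binds Cxcr4, was at 96.5 ± 6.46 FPKM in HFD_IO, 137 ± 12.7 in HFD and 69.4 ± 8.68 in CD. It rose in HFD_IO against CD by 0.48 (adjusted p = 0.0175) and in HFD against CD by 0.98 (adjusted p = 0.00099), and fell in HFD_IO against HFD by 0.50 (adjusted p = 0.0178). Ackr4, a scavenger of other chemokines, fell in HFD against CD by 0.60 (adjusted p = 0.00931). The Mif co-receptor Cd74 spread widely within groups and did not pass the threshold in HFD_IO against CD (-0.31, SE 0.50, adjusted p = 0.678).

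Of 21 genes tested that carry the signal of chemokine receptors inside the cell, 14 rose in HFD_IO against CD, 9 rose and 4 fell in HFD against CD, and 11 rose in HFD_IO against HFD. Of all genes 17.5% rose in HFD_IO against CD, 21.8% rose and 17.6% fell in HFD against CD, and 14.1% rose in HFD_IO against HFD. The list's median change was 1.03, 0.29 and 0.74 in the 3 comparisons in that order, beside -0.01, 0.06 and 0.00 over all genes. Pik3r5, the regulatory subunit of the lipid kinase that acts below these receptors, was at 17.2 ± 2.43 FPKM in HFD_IO, 6.54 ± 2.33 in HFD and 1.55 ± 0.262 in CD and rose by 2.83 in HFD_IO against CD. The exchange factor Vav1 and the GTPase Rac2 rose by 2.18 and 1.96 in that comparison. In HFD_IO against HFD the leading genes were the kinase Ptk2b (1.38), Pik3cg, the catalytic partner of Pik3r5 (1.33), Pik3r5 itself (1.31) and Vav1 (1.18). Many of these are leukocyte genes. The macrophage sums given above were higher in every HFD_IO and HFD library than in every CD library. Beside that, 4 genes of the list fell in HFD against CD. The part of leukocytes in these changes was not tested.

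NF-kappaB response genes and hypoxia response genes are given because both programmes are known to drive CXC genes. Of 15 NF-kappaB genes tested 7 rose in HFD_IO against CD, 4 rose and 2 fell in HFD against CD, and 6 rose and 2 fell in HFD_IO against HFD. The shares over all genes were 17.5% that rose in HFD_IO against CD, 21.8% and 17.6% that rose and fell in HFD against CD, and 14.1% and 14.5% in HFD_IO against HFD. Ccl2, a monocyte attractant, was at 18.7 ± 4.74 FPKM in HFD_IO, 5.32 ± 2.00 in HFD and 1.54 ± 0.919 in CD. Tnf and Il1b rose in HFD_IO against HFD by 1.03 and 1.04, while the adhesion molecule Icam1 fell in HFD against CD by 0.88. Nfkbia, the inhibitor induced by NF-kappaB, and Sod2, a mitochondrial superoxide dismutase, rose in HFD against CD by 0.80 and 0.83. Both fell in HFD_IO against HFD, Nfkbia by 0.80 (adjusted p = 0.00098) and Sod2 by 0.56 (adjusted p = 0.0322). Of 11 hypoxia genes tested 3 rose and 1 fell in HFD_IO against CD, 5 rose and 2 fell in HFD against CD, and 1 rose and 2 fell in HFD_IO against HFD. The glucose transporter gene Slc2a1 rose by 0.98 and Vegfa, the endothelial growth factor, fell by 0.73 in HFD_IO against CD.

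The genes most like each member over the 9 libraries were ranked by Pearson's r of log2(FPKM + 1) among 7343 genes with a mean of at least 5 FPKM. The points share groups and libraries, so r describes a common pattern. Cxcl12 was closest to Lgals3bp (0.99), Rab10 (0.99) and Surf4 (0.99), and Cxcl14 to Anxa8 (0.99), Frzb (0.99) and Rab31 (0.98). Cxcl16 was closest to the chemokine gene Ccl4 (0.99), Tmem106a (0.99) and Dnase1l1 (0.99), and Cxcr4 to Slfn2 (0.98), Clic1 (0.98) and Cd83 (0.98). Cxcl1 was closest to Fscn1 (0.98), Gdf15 (0.98) and Hpse (0.97). Cxcl9 was closest to Ccl5 (0.88), H2-DMa (0.88) and Cd74 (0.85), and Cxcl2 to Med17 (0.89), Fscn1 (0.88) and Ddx19a (0.87). Ackr3 was closest to the precursor gene Mir5125 (0.98), Fam193b (0.97) and Ppox (0.97). Among the members, Cxcl12, Cxcl14 and Cxcl16 correlated with each other at 0.90 to 0.95, and Ackr3 with Cxcl12 at -0.88.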

How the data were processed

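RNA from 9 aortas was sequenced after a Qiagen column extraction and NEBNext library preparation, per the labels' protocols. The FPKM values were deposited by the authors with the length of each gene. HISAT2 and hg38, a human build, are named in the submitters' processing notes, but the gene identifiers are mouse, and 98.3% of those found in GENCODE M21 had the same coordinates on GRCm38. No source used here gives the counting tool or the strand setting. Column names give a group and a number that the sample titles do not repeat, so columns were assigned only to groups.

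FPKM times length came out as whole reads in 100% of values above 0, within 0.05 of a read. The scaling matched median-of-ratios size factors. Replicate libraries differed by 6.41 to 56.4 times sampling noise (chi-square per degree of freedom), lowest for CD_2 against CD_3, so no pair agreed within sampling noise. This does not tell whether libraries share an animal. Tests were done with limma 3.58.1 in R 4.3.3 on log2(FPKM + 1), with 3 group means, all 9 libraries and a mean-variance trend. They were run on simulated counts that had the same spread for all genes and libraries. That run cannot show how the tests behave with replicate differences as uneven as those above. Ratios of members were tested by exact permutation. Alternatives were other pseudocounts, filters and scalings, voom on the recovered reads, library weights, marker covariates, 2 groups only, and leaving out libraries. The members and lists were chosen with earlier results of these data known. Named genes are the members, the rest of the family, up to 4 called genes with the largest changes in each list, overlapping genes, and the 3 genes most like each member. A gene that this rule names is not reported here. Libraries in a group are few, and depth limits Cxcl2, Cxcl9 and Cxcl10.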

Additional observations from a re-analysis of the deposited data

How the results depend on the processing

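No paired analysis was possible because the numbers in the sample titles are not shared between groups. Removal of length trends, omission of both CD_1 and HFD_IO_2, and the macrophage covariate were chosen after seeing the data.

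Over all genes, 3030 rose and 2440 fell in HFD against CD, 1956 and 2013 in HFD_IO against HFD, and 2427 and 2089 in HFD_IO against CD. TPM moved the median of all genes to -0.30, 0.14 and -0.23 in these comparisons, with 1018 and 4948, 2373 and 1160, and 1528 and 3800 genes. Voom on recovered reads gave 1871 and 3457, 2432 and 1592, and 2037 and 2790. A minimum of 5 FPKM left 1332 that fell in HFD against CD, 1288 that rose in HFD_IO against HFD and 1367 that fell in HFD_IO against CD. The adipocyte covariate gave 1219 and 901 in HFD against CD and 627 and 532 in HFD_IO against HFD, and the skeletal muscle covariate 830 and 559, and 362 and 331. Library weights gave 3409 that fell in HFD_IO against CD. Leaving out 1 library gave 2043 to 3316 and 1669 to 2844 in HFD against CD, 1182 to 2437 and 1093 to 2507 in HFD_IO against HFD, and 1785 to 2573 and 1260 to 2463 in HFD_IO against CD. In HFD_IO against HFD the counts moved most without HFD_3 (1182 and 1093), HFD_IO_2 (1218 and 1293) and HFD_IO_1 (1237 that fell), and in HFD_IO against CD without HFD_IO_2 (1260 that fell). The cause was not tested.

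Of the members, 2 rose in HFD against CD with TPM and with the skeletal muscle covariate, beside 4, and 1 rose in HFD_IO against HFD with the skeletal muscle covariate, beside 2. Without CD_1 and HFD_IO_2, 1 fell in HFD_IO against HFD, which was Cxcl9 (-0.67). Leaving out 1 library gave 4 to 5 that rose in HFD against CD and 5 to 6 in HFD_IO against CD. The macrophage covariate called 0 genes and 0 members by limma in any comparison. Its estimates turned direction for Cxcl16 in HFD against CD (-1.18, adjusted p = 0.997) and for Cxcl16 (-1.07) and Cxcr4 (-0.26) in HFD_IO against CD (adjusted p = 1 each). The log2 ratio of Cxcr4 to Ackr3 kept its sign without any 1 library, at 2.43 to 3.35 in HFD against CD, 0.03 to 0.94 in HFD_IO against HFD and 3.03 to 3.74 in HFD_IO against CD.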
